A study of Homo sapiens with 6 samples.

Results

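The data compare A549 cells given a synthetic mimic of the microRNA miR-552-3p with A549 cells given a negative control mimic, 24 h after transfection. A549 is an established human lung adenocarcinoma line of epithelial origin. Each group has 2 Illumina bead arrays, miR-552-3p replicates 1 and 2 and control replicates 1 and 2. The series also holds 2 arrays of cells given a miR-608 mimic, which were left out. The title gives the aim as finding the genes that each microRNA silences. The labels do not tell whether replicate arrays stem from separate cultures, so the p-values measure at most the spread between these arrays, which may be technical. The sequence of the control mimic was not used here.

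A gene was included where 2 or more of the 4 arrays had a detection p below 0.05. Of 47319 probes 19555 passed, and with a gene represented by its brightest passing probe these made 15885 rows, of which 11382 are named genes and 4503 are probes without a gene name here. The arrays of a group correlated at 0.994, and arrays of different groups at 0.972 to 0.974 (Pearson, across rows, which are not independent replicates). The median SD between arrays was 0.0826 log2 units with miR-552-3p and 0.0853 with the control mimic. Between 18550 and 19758 probes were detected per array, and the number of arrays limits the precision. Of the markers looked up for A549 and other epithelial cells 8 were measured, among them the keratin KRT8 (mean log2 level 14.20 with miR-552-3p and 14.32 with the control mimic) and the aldo-keto reductase AKR1B10 (15.60 with miR-552-3p and 15.81 with the control mimic). Of these 8 markers 1 was called higher, KRT19 (0.46), and 2 lower, EPCAM (-0.65) and NQO1 (-0.40), and their part in the results below was not tested. Measured markers of other cells numbered 1 of alveolar type II cells, 2 of fibroblasts and 2 of immune cells, and of 4 endothelial markers 0 passed the detection filter. The immune markers were CD14 (-1.21) and CD68 (0.84), which changed in opposite directions, and their part in the results below was not tested.

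A microRNA is a short RNA that is loaded into an Argonaute protein and guides it to messenger RNAs. Pairing of its seed, the bases near its 5′ end, to sites that lie mostly in 3′ untranslated regions recruits the deadenylation and decapping machinery and lowers the level of the message. A transfected mimic is a double-stranded RNA built to enter this pathway, so direct targets fall, and genes downstream of those targets can move either way. Pathways and complexes are therefore described below together with single genes, and none of the changes is assigned to direct or indirect action.

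The sequence of the microRNA is shown because its seed is what the mimic adds to the cell. RefSeq places it on the minus strand of chromosome 1 at chr1:34669614-34669634 (GRCh38.p14), and the capitals mark the seed, bases 2 to 8.
hsa-miR-552-3p: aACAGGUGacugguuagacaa
Its precursor hairpin at chr1:34669599-34669694 carries it on the 3′ arm, in capitals.
miR-552 hairpin: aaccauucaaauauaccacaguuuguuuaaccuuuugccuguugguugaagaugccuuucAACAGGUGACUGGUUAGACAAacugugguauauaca
The other arm gives hsa-miR-552-5p, at chr1:34669650-34669670, which has another seed, also in capitals.
hsa-miR-552-5p: gUUUAACCuuuugccuguugg
Of 2370 human mature microRNAs in the RefSeq table only 1, miR-552-3p itself, has this seed, so no annotated human family member shares it. Sites for the seed in 3′ untranslated regions were not analysed here.

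The response to miR-552-3p was broad and took in both directions. Of 15885 rows 4926 (31.0%) were called, which means an adjusted p under 0.05 in limma, 2308 higher (14.5%) and 2618 lower (16.5%). Among named genes the shares were 15.3% higher (1740) and 19.5% lower (2224), and these are the background against which every list below is read. Calls of at least 2-fold leaned downward, with 357 rows (2.25%) higher and 643 (4.05%) lower, or 64.3% of 1000 (6.3% of rows) lower. The 2-fold counts depended on the processing, with 153 higher and 258 lower without background correction, 182 and 320 with normexp, and 145 and 255 with the authors' values. Among named genes 283 (2.49%) were higher and 551 (4.84%) lower by that much, 834 in all (7.33%). The groups did not overlap for 68.8% of rows and 73.8% of named genes. Named genes had a median log2 change of -4.41e-05. Quantile normalization gives the arrays a common distribution, so a centre near 0 is largely set by the processing. It cannot show whether levels shifted as a whole. The median size of a called change was 1.51-fold among genes that rose and 1.61-fold among genes that fell.

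These calls rest on all 4 arrays. In fits on 3 arrays limma called 1640 rows when miR-552-3p replicate 1 was left out and 1900 for the other miR-552-3p array. Without control replicate 1 or control replicate 2 it called 0, with smallest adjusted p-values of 0.0510 and 0.0515, while 5610 and 5730 rows had an unadjusted p under 0.05. With the 2 miR-608 arrays added to lend their spread, these became fits of 5 arrays, each without miR-552-3p replicate 1 or 2 or control replicate 1 or 2. For them all arrays were background-corrected and normalized together, so the miR-608 arrays also entered the log2 values. Of the 4926 rows 2627 (53.3%) kept the call in each of these fits. A range in parentheses after a count below is that count over these 4 fits, each without 1 of those arrays.

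**Figure D1:**
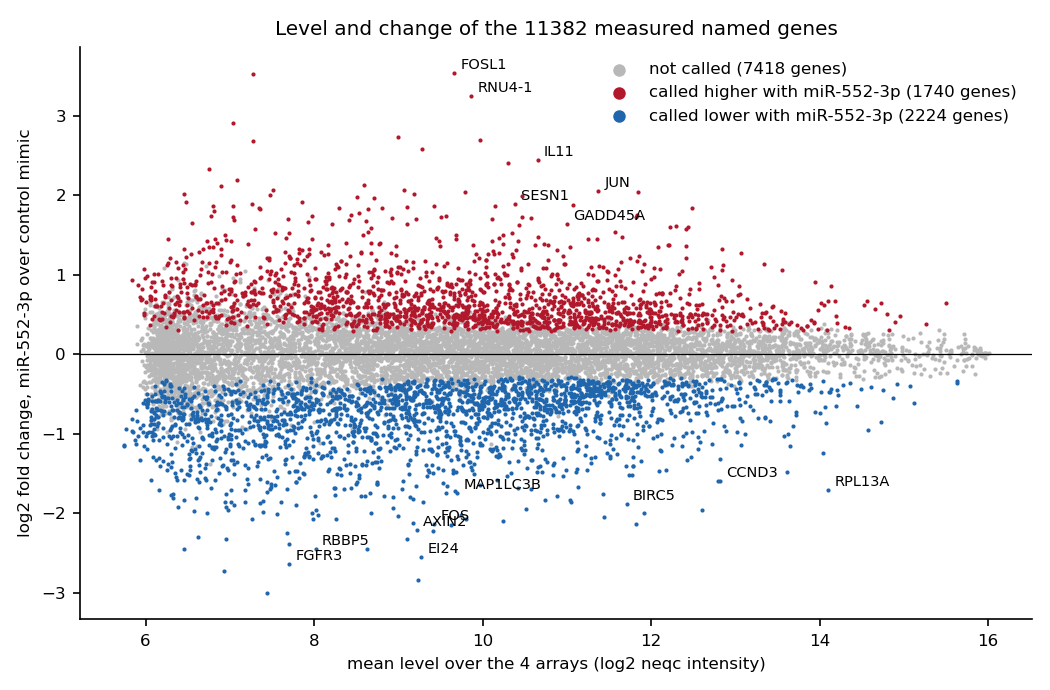
Each point is a measured named gene, with its mean log2 level over the 4 arrays on the x axis and its log2 fold change, miR-552-3p over control mimic, on the y axis. Red points (1740) were called higher with miR-552-3p, blue points (2224) lower and grey points were not called, and more blue than red points lie beyond 1 log2 unit.

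Change was spread over the whole range of levels, as the plot of change against level shows. In the dimmest of 5 equal classes of named genes 9.14% were called higher and 16.2% lower, in the middle class 18.9% and 22.5%, and in the brightest class 13.4% and 14.5%. RNA from many cells was measured, so less RNA in each cell and fewer cells with the RNA cannot be told apart for any gene below.

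Several genes crossed the detection limit. In all, 153 named genes were detected on both miR-552-3p arrays and on no control array, and 90 of these were called higher. A further 270 were detected on both control arrays and on no miR-552-3p array, and 198 of these were called lower. For such genes only a bound on the fold is given, which sets the mean of the bright group against the lowest detected signal on the dim arrays, or the probe's own where higher. Among them were EFHD1, a mitochondrial calcium-binding protein, at least 6.66-fold lower, and the aldehyde oxidase AOX1, at least 7.17-fold higher (adjusted p = 0.00454 and 0.00454). The transcription factor NFE2 was at least 2.77-fold lower and the sphingosine phosphate receptor S1PR5 at least 2.95-fold lower. The GTPase RRAD was at least 4.87-fold higher, and CACUL1, a cullin-related protein that acts with CDK2, at least 3.94-fold higher. Some genes described below were detected on both arrays of their higher group and on 1 of the 2 arrays of the other. These were RAB3B, TRAF1, SNAI2, RUNX2, NUP58 and SLC35F3 among the genes that rose, and FGFR3, EIF4EBP2, WNT5A, POLR2E, SEL1L, ABCG2 and ZNF792 among those that fell. Their means in the lower group, from 6.03 for SEL1L to 6.42 for SLC35F3, lay near the lowest detected signal of an array (6.14 to 6.26), so a fold change given for one of them rests on a level at the detection limit.

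Among genes detected in both groups, FOSL1, the gene of the AP-1 subunit FRA1, had the largest rise. Its log2 levels were 11.40 and 11.47 with miR-552-3p, against 7.78 and 8.01 with the control mimic, and the groups lay far apart, with a log2 fold change of 3.54 ± 0.11 (SE, n = 2 each; adjusted p = 0.00454). The largest fall was that of CTDSPL, a phosphatase that acts on the retinoblastoma protein, with 7.89 and 7.74 with miR-552-3p, against 10.59 and 10.71 with the control mimic (-2.84 ± 0.10, adjusted p = 0.00454). Its miR-552-3p arrays were both lower by more than the spread of either group. C9orf40 (-2.45 ± 0.08), PROSER1 (-2.23 ± 0.09) and the pseudogene probe RNF4BP (-2.39 ± 0.12), which may read its parent gene, were among the 15 largest falls of named genes that kept the call in each fit of 5 arrays. GLIPR1 (2.70 ± 0.08), the ubiquitin ligase MARCHF4 (2.41 ± 0.08) and the platelet receptor PEAR1 (2.07 ± 0.17) were among the 15 largest rises chosen in the same way.

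Named genes were then sorted into 112 lists of pathways, families and complexes, which covered 3797 measured genes. Of these 607 rose (15.99%) and 698 fell (18.38%), shares near the background of 15.3% and 19.5%. Single lists lay to one side, as the plot of shares by list shows. Replacing the 91 genes detected in 1 group only by their bounds moved the median of 2 lists, by at most 0.0191.

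**Figure D2:**
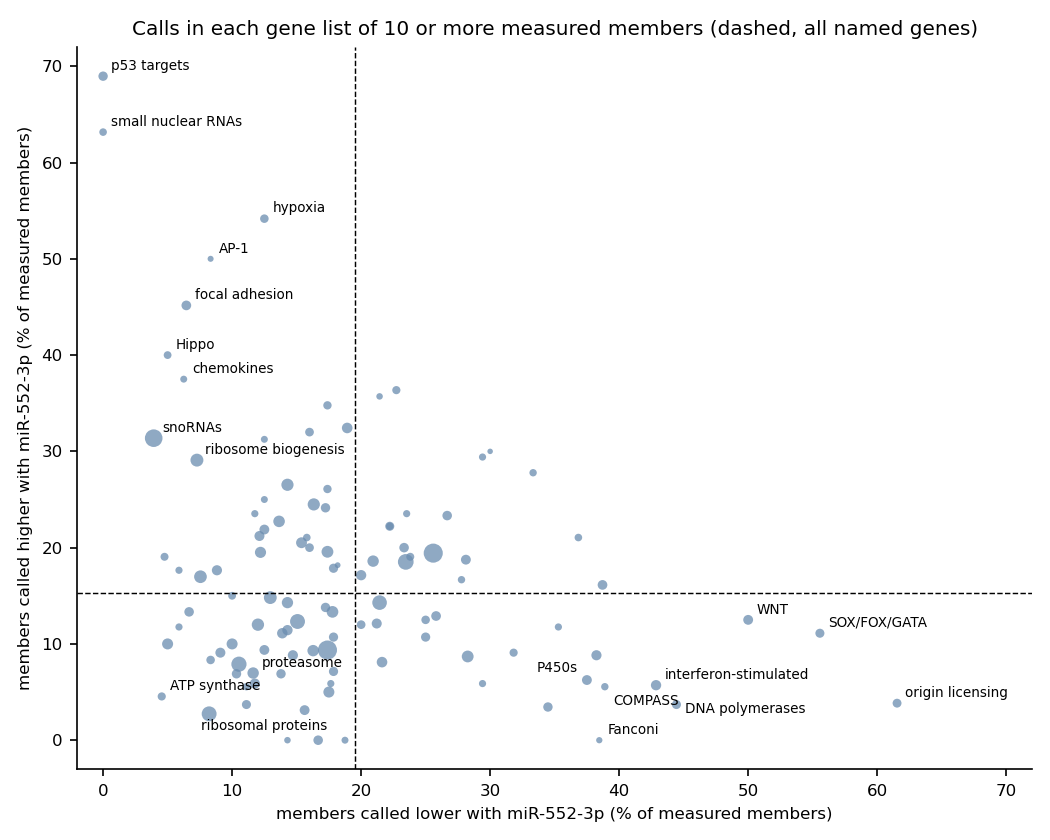
Each point is a gene list with at least 10 measured members, placed by the share of its members called lower (x axis, %) and higher (y axis, %) with miR-552-3p, with a larger area for longer lists. Dashed lines mark the shares over all named genes (19.5% and 15.3%), and p53 targets and small nuclear RNAs lie at the upper left while origin licensing, SOX, FOX and GATA factors and WNT signalling lie at the right.

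Genes that start DNA replication were mostly lower. Cells load MCM helicases onto origins in G1 with ORC, CDC6 and CDT1, and CDC45 and the GINS proteins turn them into active helicases at the start of S phase. Of 26 measured licensing and helicase genes 16 (10 to 11) fell and 1 (0 to 1) rose, with a median log2 change of -0.38. GINS3, a subunit of the GINS complex, had log2 levels of 9.59 and 9.72 with miR-552-3p, against 10.84 and 10.82 with the control mimic, and both miR-552-3p arrays were lower than both control arrays (-1.18 ± 0.09, adjusted p = 0.00496). CDC45, the helicase partner, had 11.28 and 11.34 with miR-552-3p, against 12.05 and 11.92 with the control mimic (-0.68 ± 0.09, adjusted p = 0.0119). The origin recognition subunit ORC1 (-0.67 ± 0.10) and the replication factor MCM10 (-0.72 ± 0.09) fell by similar amounts, and the groups did not overlap for either. The exception was ORC2, another origin recognition subunit, at 0.43.

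The genes of the polymerases that copy the opened DNA leaned lower too. Of 27 polymerase, primase, clamp and clamp loader genes 12 (10) fell and 1 (1) rose (median -0.31). POLD3, a subunit of polymerase delta, had 8.86 and 8.75 with miR-552-3p, against 10.31 and 10.20 with the control mimic and fell by the most in the list (-1.45 ± 0.09, adjusted p = 0.00454). The catalytic subunits of polymerase alpha, POLA1 (-1.09 ± 0.07), and epsilon, POLE (-0.60 ± 0.09), fell too, as did the clamp loader subunit RFC2 (-0.67 ± 0.11). POLD4, the small subunit of polymerase delta, rose (0.502). The genes of nucleotide supply were divided. Of 33 genes of purine and pyrimidine synthesis 7 (5 to 6) fell and 4 (3 to 4) rose. The CTP synthase CTPS2 (-1.20) and thymidine kinase TK1 (-0.72) fell, while RRM2B, a ribonucleotide reductase subunit that p53 induces, rose (0.76). A second probe of ADSS1 was called opposite to its main one (-0.96).

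Promoters of the licensing genes are shown because E2F factors, which bind TTTNNCGC-like sites, are the textbook regulators of these genes. The letters TTTNNCGC were searched on both strands from 250 bases before to 50 bases after each start in the RefSeq promoter table (GRCh38.p14). They occurred in 12 of the 22 licensing promoters in the table (54.5%), against 10.8% of 9076 promoters of measured protein-coding genes and 6.90% of all 27305 promoters. Over all protein-coding genes the share was 9.38% for those called higher and 11.9% for those called lower. A match is a description of the sequence and not a binding site. The windows of 4 genes, picked as examples with their values known, follow with 20 bases on each side and 1 match per gene in capitals. The promoter of MCM3 holds 3 matches and that of MCM2 holds 2, counted on both strands and with overlaps, and the others are not marked.
GINS3, chr16:58392446-58392493, plus strand: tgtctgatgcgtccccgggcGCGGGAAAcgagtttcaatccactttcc
MCM3, chr6:52284889-52284936, minus strand: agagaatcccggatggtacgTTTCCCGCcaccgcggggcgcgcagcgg
CDC6, chr17:40287866-40287913, plus strand: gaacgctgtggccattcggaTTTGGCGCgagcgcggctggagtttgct
MCM2, chr3:127598393-127598440, plus strand: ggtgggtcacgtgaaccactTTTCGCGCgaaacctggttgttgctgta
These genes had log2 changes of -1.18, -0.59, -0.63 and -0.58.

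Upstream of replication, cyclins and their kinases phosphorylate the retinoblastoma proteins and release E2F factors. CCND3, the gene of cyclin D3, had log2 levels of 12.03 and 12.01 with miR-552-3p, against 13.58 and 13.65 with the control mimic, and CDK6, a kinase that D cyclins activate, had 10.72 and 10.78 with miR-552-3p, against 11.58 and 11.82 with the control mimic. Both fell with no overlap between the groups (-1.59 ± 0.08 and -0.95 ± 0.11; adjusted p = 0.00454 and 0.00978). Of 16 genes of the retinoblastoma and E2F families 3 (3) fell, the activator E2F2 (-1.65 ± 0.07), the repressor E2F5 (-1.18 ± 0.07) and the pocket protein RBL2 (-1.49 ± 0.09), and limma called 0 higher, also at an unadjusted p under 0.05. The inhibitor CDKN1A (p21) rose (0.91 ± 0.07) and CDKN1B (p27) was at -0.42. Of the other cyclins CCNF (-0.72) and the transcriptional CCNT1 (-0.68) fell, while CCNH, which serves both TFIIH and the CDK-activating kinase, rose (0.80). In all, 5 (3 to 4) of 18 cyclins fell and 3 (2 to 3) rose.

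Genes of mitosis had fewer calls. The kinetochore links chromosomes to spindle fibres, and 10 (5 to 8) of its 29 measured genes fell and 1 (1 to 2) rose (median -0.17). CENPF (-1.08 ± 0.12) and the microtubule-binding SKA1 (-1.01 ± 0.12) fell, while KNL1, the scaffold of the outer kinetochore, rose (0.94 ± 0.14). In the 18 genes of the spindle checkpoint and passenger complex 2 fell and 1 rose. One was BIRC5, the gene of survivin, with 10.71 and 10.82 with miR-552-3p, against 12.64 and 12.67 with the control mimic, where both miR-552-3p arrays lay well below both control arrays (-1.89 ± 0.08, adjusted p = 0.00454). The checkpoint gene KNTC1 fell (-0.37) and the shugoshin SGO2 rose (0.45), and neither kept the call in each fit of 5 arrays. ANAPC13, a small subunit of the ubiquitin ligase that starts anaphase, fell (-1.99 ± 0.09), and among the other measured subunits of that complex CDC16 (-0.37) was called. The cohesin subunit RAD21 (-0.81 ± 0.09), sororin, CDCA5 (-1.46 ± 0.07), and the condensin subunit NCAPG2 (-1.06 ± 0.09) fell among 17 cohesin and condensin genes, with 1 higher, PDS5B (0.48), which had another probe called opposite. Histone genes were mostly not called, with 4 (2 to 3) lower and 2 (0 to 1) higher of 34.

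**Figure D3:**
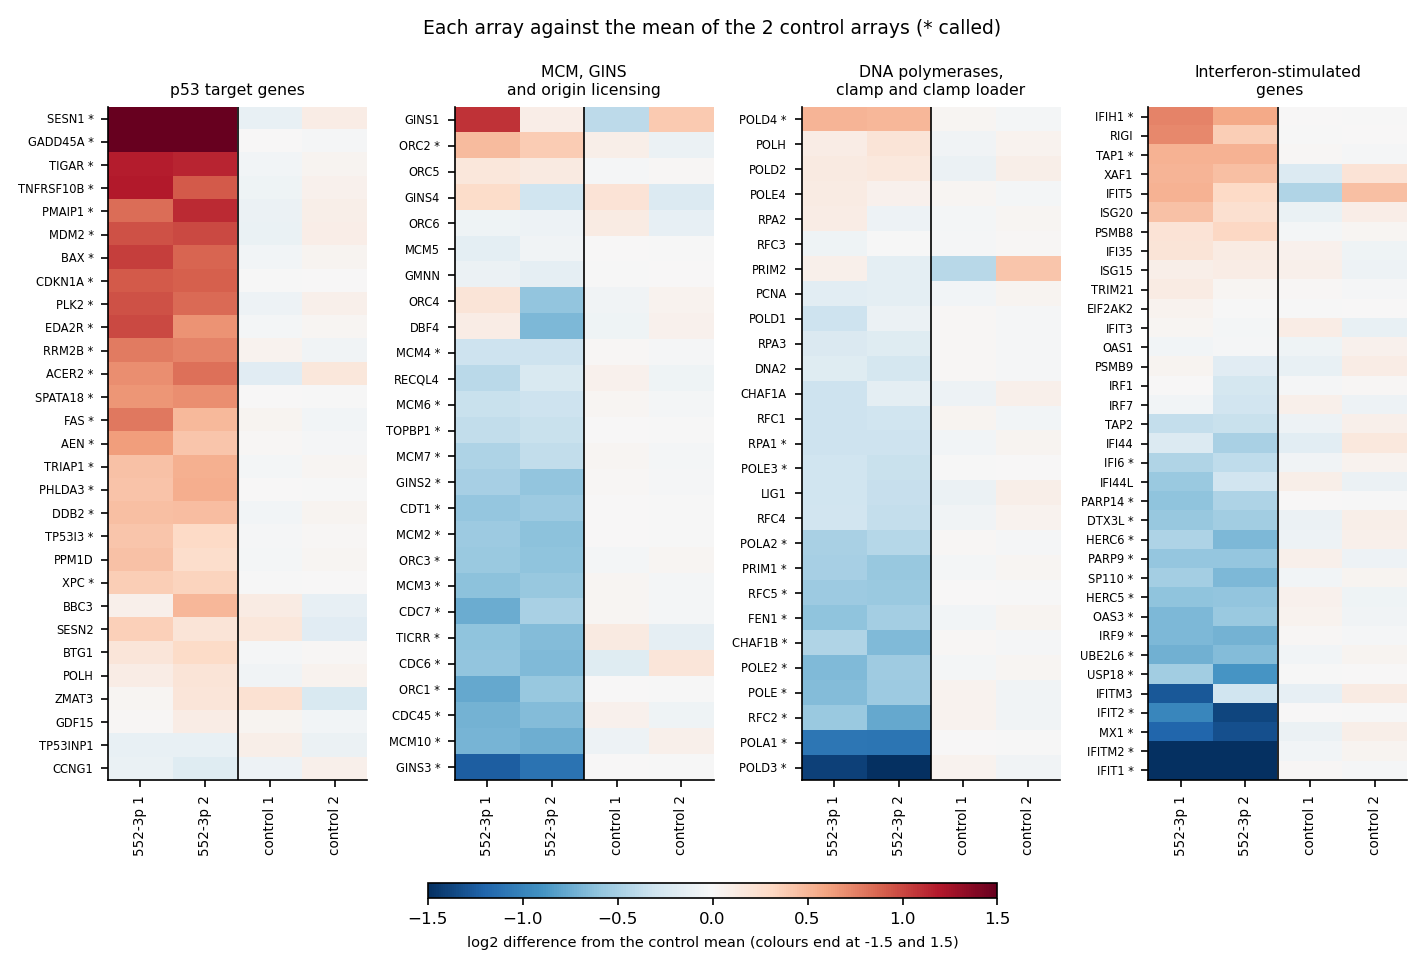
Rows are the measured genes of 4 lists and columns the 4 arrays, with the miR-552-3p arrays left of the control arrays. Colour gives the log2 difference from the mean of the control arrays, ending at 1.5 in each direction, and stars mark called genes. The p53 targets are mostly red and the replication and interferon genes mostly blue on both miR-552-3p arrays, while most cells of the control arrays are pale.

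Most listed p53 target genes were higher. The transcription factor p53 answers DNA damage and other stress by switching on genes of growth arrest, repair and apoptosis. The list holds a selection of p53 targets. Of the 29 measured in it 20 (15 to 16) rose, and limma called 0 lower, also at an unadjusted p under 0.05. Their median log2 change was 0.52. SESN1, a sestrin that restrains mTOR signalling, had log2 levels of 11.29 and 11.36 with miR-552-3p, against 9.33 and 9.55 with the control mimic (1.89 ± 0.11, adjusted p = 0.00454). GADD45A, a growth arrest and DNA damage protein, had 11.86 and 11.77 with miR-552-3p, against 10.19 and 10.17 with the control mimic (1.64 ± 0.08, adjusted p = 0.00454). The 2 arrays of each group lay close together and the groups far apart for both genes. TIGAR, which lowers glycolytic flux, rose (1.16 ± 0.08), as did the death receptor TNFRSF10B (1.06 ± 0.13). CDKN1A appears here too, and the ubiquitin ligase MDM2, which p53 induces and which degrades p53, stood at 0.97. Members that were not called included the targets CCNG1 (-0.14), GDF15 (0.07) and TP53INP1 (-0.11).

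Of 30 genes of double-strand break signalling and repair 5 (3 to 4) fell, and limma called 0 higher (1 at an unadjusted p under 0.05). They were BRCA1 (-0.83 ± 0.12) and its partner BARD1 (-0.38), the nuclease EXO1 (-0.52 ± 0.08), the recombination motor RAD54L (-0.498 ± 0.08) and TIMELESS (-0.37). Of 13 genes of the Fanconi anaemia pathway, which unhooks crosslinked strands, 5 (3 to 6) fell, led by FANCE (-1.39 ± 0.07) and FANCG (-1.05 ± 0.07), and limma called 0 higher (1 at an unadjusted p under 0.05). Excision and mismatch repair genes went both ways, with 4 (2 to 3) lower and 3 (1 to 2) higher of 32. PARP1 (-0.65 ± 0.08) and the mismatch protein MSH6 (-0.45 ± 0.08) fell, while DDB2, a damage sensor and p53 target, rose (0.45 ± 0.08).

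Single genes of apoptosis were called in both directions. In the BCL2 family 4 (4 to 5) of 17 rose (23.5%) and 2 (1) fell (11.8%), against 15.3% and 19.5% of named genes. The BH3-only gene BIK had 8.20 and 8.34 with miR-552-3p, against 6.47 and 6.41 with the control mimic (1.83 ± 0.09, adjusted p = 0.00454). PMAIP1, the gene of NOXA, had 0.98 ± 0.14 and BAX, which opens the mitochondrial outer membrane, had 0.95 ± 0.10, and both are also p53 targets. The protective BCL2L1 was higher too (0.47). The lower members were BCL2L12 (-0.51 ± 0.08) and MCL1 (-0.40), and another probe of MCL1 was called in the opposite direction. Among 21 caspases and inhibitors of apoptosis 4 (2 to 4) rose (19.05%) and 5 (5 to 6) fell (23.8%), shares near those of named genes. The executioner CASP6 (-1.26 ± 0.07) and the initiator CASP2 (-1.24 ± 0.08) fell, while APAF1, the scaffold of the apoptosome, rose (0.80 ± 0.11).

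AP-1 factors included FOSL1, the largest rise among genes detected in both groups. AP-1 is a dimer of JUN and FOS family proteins that growth factor and stress kinases switch on. Of 12 measured members 6 (6 to 7) rose and 1 (1) fell (median 0.65). Beside FOSL1, JUN had log2 levels of 12.45 and 12.34 with miR-552-3p, against 10.55 and 10.14 with the control mimic (2.05 ± 0.17, adjusted p = 0.00556). FOS moved the other way, with 8.496 and 8.22 with miR-552-3p, against 10.79 and 10.20 with the control mimic (-2.14 ± 0.24, adjusted p = 0.00902). Both miR-552-3p arrays were above both control arrays for JUN and below them for FOS. The stress-induced ATF3 rose (1.37 ± 0.08), as did JUNB (1.11), FOSL2 (0.82) and MAFF (0.83). In the wider CREB and ATF family 4 (2 to 4) of 16 rose and 2 (2 to 3) fell, and CREB5 had 10.58 and 10.57 with miR-552-3p, against 8.003 and 7.99 with the control mimic (2.58 ± 0.07, adjusted p = 0.00454), with hardly any difference within a group.

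The AP-1-like heptamer TGANTCA, in which N is any base, was searched in the same promoter windows on both strands. It occurred in 6.16% of promoters of protein-coding genes called higher, 3.85% of those called lower, 4.62% of all measured protein-coding genes and 7.76% of all promoters in the table. The complement of the miR-552-3p seed, CACCTGT, occurred in 1.98% of promoters of genes called higher, 2.85% of those called lower and 2.67% of all measured ones. Windows of 4 genes that rose follow, chosen because these genes are described among the results, with the heptamer in capitals.
IL11, chr19:55370533-55370579, minus strand: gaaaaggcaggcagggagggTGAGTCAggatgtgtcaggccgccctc
CXCL8, chr4:73740412-73740458, plus strand: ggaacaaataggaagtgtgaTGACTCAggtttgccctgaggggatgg
ANKRD1, chr10:90921256-90921302, minus strand: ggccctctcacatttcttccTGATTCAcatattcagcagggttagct
RAB3B, chr1:51990793-51990839, minus strand: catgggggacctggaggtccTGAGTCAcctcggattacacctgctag
Their log2 changes were 2.45, 1.84, 1.70 and 1.35.

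Receptors and growth factors changed in both directions. Of 18 receptor tyrosine kinases 5 (4 to 5) rose and 6 (4 to 6) fell. The ephrin receptor EPHA2 had 11.30 and 11.37 with miR-552-3p, against 9.58 and 9.63 with the control mimic (1.73 ± 0.08, adjusted p = 0.00454), and EGFR was at 1.13. The FGF receptor FGFR3 had 6.01 and 6.76 with miR-552-3p, against 9.11 and 8.93 with the control mimic and was detected on 1 of the 2 miR-552-3p arrays (-2.63 ± 0.28, adjusted p = 0.00823). The groups did not overlap, although the miR-552-3p arrays differed from each other by more than most. MERTK fell (-1.32 ± 0.15) and ERBB3, a partner of EGFR and ERBB2, was at least 1.91-fold lower, below detection with miR-552-3p. Among 16 growth factors 5 (3 to 5) rose and 2 (1) fell, and EGFR ligands split, with epiregulin, EREG, at 1.496 ± 0.12 and TGFA at -1.51 ± 0.14. VEGFA, the main angiogenic factor, rose (0.92 ± 0.15).

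Downstream kinases also went both ways. In the RAS to ERK cascade 8 (5 to 6) of 22 rose and 5 (4 to 5) fell. The kinase MAP2K1 (MEK1) fell (-0.77 ± 0.12), the GTPase RRAS2 rose (0.91 ± 0.07), and of the feedback inhibitors SPRY2 rose (1.14 ± 0.10) and SPRED2 fell (-1.18 ± 0.13). Another probe of GRB2 was called opposite to its main one (0.70). Dual-specificity phosphatases, which switch MAP kinases off, had 4 (3 to 4) higher and 4 (3) lower of 18, with DUSP5 at 1.35 ± 0.08 and DUSP22 at -1.37 ± 0.07. Among 25 p38 and JNK pathway kinases 3 (3) rose and 5 (4 to 6) fell. MAP2K6, the activator of p38, dropped below detection on both miR-552-3p arrays, at least 4.24-fold lower (adjusted p = 0.00454), and MAP3K11 fell (-1.60 ± 0.09), while MAP3K14, the kinase of the alternative NF-kB pathway, rose (0.97 ± 0.10).

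In the PI3K and mTOR list 6 (3 to 5) of 30 genes rose and 7 (5 to 6) fell. EIF4EBP2, a repressor of cap-dependent translation that mTOR inactivates, had 6.0 and 6.46 with miR-552-3p, against 8.46 and 8.15 with the control mimic (-2.07 ± 0.21, adjusted p = 0.00742). The S6 kinase RPS6KB1, another mTOR target, had 10.99 and 10.97 with miR-552-3p, against 12.47 and 12.53 with the control mimic (-1.52 ± 0.07, adjusted p = 0.00454). The regulatory subunit PIK3R1 fell (-0.95 ± 0.09), and the phosphatase INPP4B, which counters PI3K, rose (0.80 ± 0.09).

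WNT signalling genes leaned lower. WNT ligands bind Frizzled receptors and stabilise beta-catenin, which drives target genes such as AXIN2. Of 32 measured genes 16 (12 to 14) fell and 4 (2) rose (median -0.45). AXIN2, a target and feedback inhibitor of the pathway, had 7.97 and 8.26 with miR-552-3p, against 10.40 and 10.25 with the control mimic (-2.21 ± 0.14, adjusted p = 0.00454). The ligand WNT5A had 5.92 and 6.25 with miR-552-3p, against 7.93 and 7.95 with the control mimic (adjusted p = 0.00496), and was detected on 1 of the 2 miR-552-3p arrays. The groups did not overlap for either gene. The receptor FZD7 fell (-1.45 ± 0.10), FZD4 and the receptor-removing ligase RNF43 were at least 1.67-fold and 1.59-fold lower, below detection with miR-552-3p, and CTNNBIP1, which blocks beta-catenin from its partner, fell (-1.47 ± 0.11). The 4 that rose were the kinases CSNK1A1 (1.18) and CSNK1E (0.36), DVL3 (0.78) and DKK3 (0.33).

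Other developmental pathways were mixed. Of 17 Notch and Hedgehog genes 6 (4 to 6) fell, among them the receptors NOTCH3 (-0.93 ± 0.10) and SMO (-0.97 ± 0.07), and 2 (2 to 3) rose. In TGF-beta and BMP signalling 6 (5 to 6) of 32 rose and 9 (5 to 7) fell. The ligand TGFB2 (1.86 ± 0.09) and the activin trap FST (1.03 ± 0.07) rose, while the co-receptor TGFBR3 (-1.18 ± 0.13) fell. Hippo pathway genes and targets were higher, with 8 (7 to 9) of 20 risen and 1 (1) fallen (median 0.34). YAP and TAZ, which the Hippo kinases restrain, bind TEAD factors and drive CCN1 and ANKRD1. CCN1 had 12.90 and 12.82 with miR-552-3p, against 10.85 and 10.79 with the control mimic (2.04 ± 0.08, adjusted p = 0.00454), ANKRD1 rose (1.70 ± 0.15), and so did WWTR1, the gene of TAZ (1.27 ± 0.08). TEAD2 was the member that fell (-1.07 ± 0.09).

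Several chemokines and interleukins rose. Of 16 chemokines and interleukins 6 (6 to 7) rose and 1 (1) fell (median 0.36). IL11, a cytokine of the IL6 family, had 11.87 and 11.89 with miR-552-3p, against 9.59 and 9.28 with the control mimic (2.45 ± 0.13, adjusted p = 0.00454). The neutrophil chemokine CXCL8 had 13.45 and 13.36 with miR-552-3p, against 11.62 and 11.51 with the control mimic (1.84 ± 0.09, adjusted p = 0.00454). Both cytokines were higher on both miR-552-3p arrays than on either control array. LIF rose (1.54 ± 0.17), IL12A was at least 2.89-fold higher against a control below detection, and the scavenger chemokine CXCL16 was the one that fell (-0.73). Among 25 proteins of the NF-kB pathway 8 (6 to 8) rose and 4 (2 to 3) fell, led by NFKB2 (1.40 ± 0.11), TRAF1 (1.16 ± 0.17) and IRAK2 (0.99 ± 0.09) upward and the adaptor MYD88 (-1.17 ± 0.09) downward.

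Interferon-stimulated genes encode antiviral proteins and are switched on when interferon binds its receptors. Of 35 measured 15 (11 to 14) fell and 2 (2 to 3) rose (median -0.35). IFIT1, which binds foreign RNA, had 6.88 and 7.08 with miR-552-3p, against 8.995 and 8.95 with the control mimic (-1.99 ± 0.10, adjusted p = 0.00454). IFITM2, which blocks virus entry, had 9.95 and 10.03 with miR-552-3p, against 11.73 and 11.82 with the control mimic (-1.79 ± 0.08, adjusted p = 0.00454). The groups did not overlap for either gene. MX1 was at least 1.65-fold lower and IFIT2 fell (-1.18 ± 0.16). The 2 that rose were the RNA sensor IFIH1 (0.66) and the peptide transporter TAP1 (0.52). ISG15 (0.10) and OAS1 (-0.03) were not called. Receptors and kinases of cytokine signalling had 8 (6 to 7) of 31 lower and 4 (2 to 3) higher. The interferon receptor IFNAR1 had 7.67 and 7.49 with miR-552-3p, against 9.001 and 9.02 with the control mimic (-1.43 ± 0.10, adjusted p = 0.00467), the kinase JAK1 fell (-1.10 ± 0.08), the feedback inhibitor SOCS2 fell (-1.39 ± 0.08) and the interleukin-1 receptor IL1R1 was at least 2.05-fold lower.

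Transcription factors of the SOX, FOX and GATA families leaned lower. These factors set cell identity in development, and SOX2 and SOX9 mark foregut and lung progenitors. Of 27 measured 15 (12 to 13) fell and 3 (1 to 2) rose (median -0.45). SOX2 had 8.88 and 8.37 with miR-552-3p, against 10.20 and 9.96 with the control mimic (-1.45 ± 0.21, adjusted p = 0.0144), while SOX9 had 11.35 and 11.41 with miR-552-3p, against 10.41 and 10.36 with the control mimic (0.998 ± 0.08, adjusted p = 0.00536). These 2 genes moved apart with no overlap between groups. SOX18 fell (-1.29 ± 0.08) and FOXP4 was at least 1.44-fold lower. FOXM1, a driver of mitotic genes, was at -0.45.

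Other factor families had members on both sides. ETS1 rose (1.58 ± 0.14) and SPDEF, an epithelial ETS factor, fell (-1.49 ± 0.19), with 5 (4) higher and 5 (3 to 5) lower of 17 ETS genes. Of 14 Kruppel-like and SP factors 5 (2 to 4) rose and 3 (1 to 3) fell, and KLF6 had 12.69 and 12.73 with miR-552-3p, against 10.96 and 10.95 with the control mimic (1.75 ± 0.07, adjusted p = 0.00454). Of 19 nuclear receptors and coactivators 7 (5 to 6) fell and 4 (2 to 3) rose, with NR4A2 (-1.25 ± 0.12) and RXRA (-1.22 ± 0.09) lower and PPARG (0.81 ± 0.08) higher, and another probe of NR2C2 was called opposite to its main one (0.74). The E-box repressor SNAI2, a factor of epithelial to mesenchymal transition, rose (1.72 ± 0.09) and TCF3 fell (-1.30 ± 0.10). MYC rose (0.60 ± 0.08) and its antagonist MXD4 fell (-0.74 ± 0.08) within a network of 11 genes with 2 (2) higher and 2 (1 to 3) lower. RUNX3 fell (-1.53 ± 0.15) and RUNX2 was at 1.01, and 3 (2 to 3) of 9 genes of that family and its partners fell.

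COMPASS, Polycomb and SWI/SNF genes were called lower in 38.9%, 38.7% and 31.8% of members, against 19.5% of named genes. NuRD, SIN3 and CoREST genes (25.0%) and histone acetyltransferases (15.6%) lay nearer to that share, and histone demethylases (4.76%) below it. The COMPASS complexes methylate histone H3 at lysine 4 and share a core of WDR5, RBBP5, ASH2L and DPY30. Of 18 measured genes 7 (5 to 6) fell and 1 (0 to 1) rose. RBBP5 had 6.84 and 6.75 with miR-552-3p, against 9.29 and 9.20 with the control mimic and was the largest fall in the list (-2.45 ± 0.08, adjusted p = 0.00454). PAGR1, a subunit of the KMT2C and KMT2D forms, had 10.12 and 10.11 with miR-552-3p, against 11.90 and 12.04 with the control mimic (-1.86 ± 0.09, adjusted p = 0.00454). Both miR-552-3p arrays lay below both control arrays for these genes. ASH2L (-0.87 ± 0.08) and WDR82 (-0.81 ± 0.08), a subunit of the SET1 forms, fell as well, and KDM6A was the member called higher (0.38).

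Of 31 Polycomb genes, whose complexes repress by marking histones H3 and H2A, 12 (8 to 9) fell and 5 (4 to 5) rose. RBBP4, a histone chaperone shared with NuRD, had 9.37 and 9.38 with miR-552-3p, against 10.99 and 10.93 with the control mimic (-1.58 ± 0.08, adjusted p = 0.00454), SCML2 (-1.497 ± 0.17) and KDM2B (-1.03 ± 0.08) fell, and PHC2 rose (1.10 ± 0.12). The SWI/SNF remodellers had 7 (7 to 8) lower and 2 (0 to 1) higher of 22, with the core subunits SMARCC1 (-1.20 ± 0.08) and SMARCD1 (-1.34 ± 0.08) and the accessory DPF2 (-0.97 ± 0.13) and BCL7C (-0.97 ± 0.08) lower. Of 24 NuRD, SIN3 and CoREST genes 6 (4 to 5) fell, RCOR2 (-1.36 ± 0.08), MBD2 (-0.66 ± 0.08) and SAP130 (-0.63 ± 0.08) among them, and 3 (0 to 1) rose. Histone acetyltransferase genes had 5 (2 to 4) lower, including KAT2B (-0.98 ± 0.08), and 1 (1) higher, SUPT3H (0.86 ± 0.09), of 32. Histone demethylases had 4 (3) higher, JMJD6 (1.04 ± 0.09), KDM3A (0.81 ± 0.10), JMJD1C (0.77 ± 0.09) and KDM6A, and 1 (1) lower, KDM2B, of 21.

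**Figure D4:**
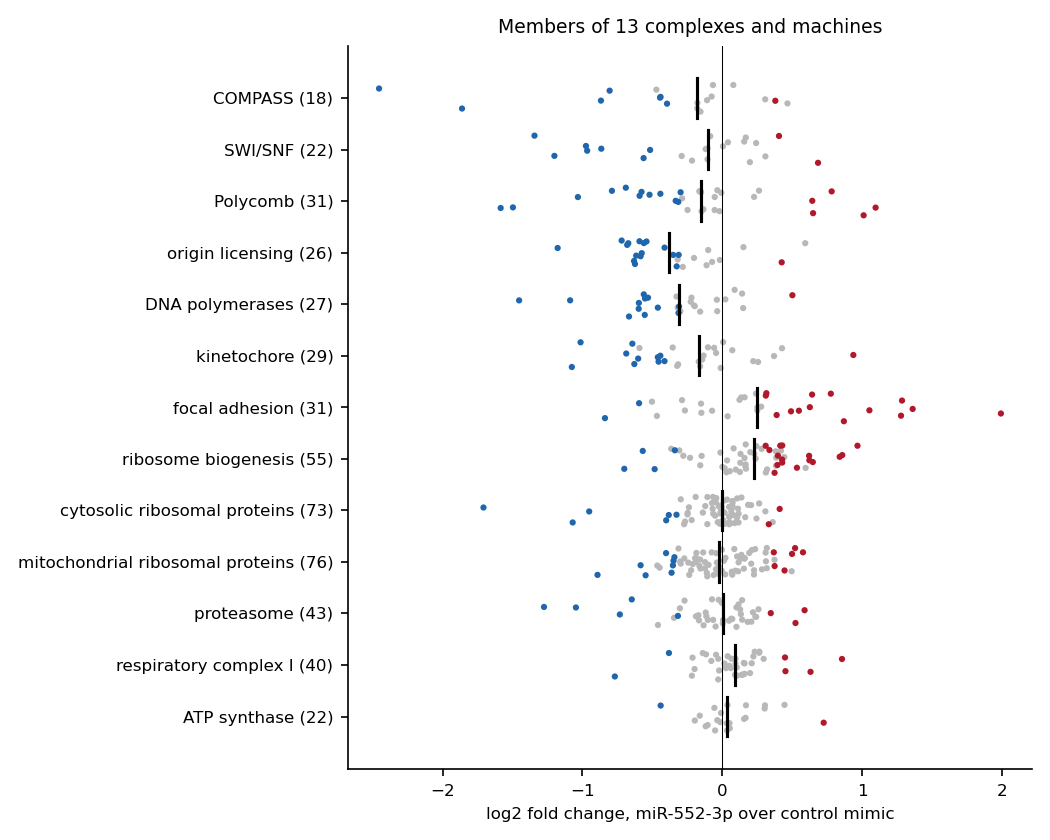
Each point is a measured gene of 1 of 13 complexes or machines (number of genes in parentheses), placed by its log2 fold change, miR-552-3p over control mimic. Red points were called higher and blue points lower, grey points were not called, and black bars are medians. Points of the ribosome, proteasome, complex I and ATP synthase are mostly grey, and the licensing genes and DNA polymerases lie mostly left of 0.

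The general transcription machinery had calls in both directions. Mediator, the bridge to RNA polymerase II, had 2 (0 to 2) higher and 5 (3 to 4) lower of 28, with MED20 at -1.53 ± 0.09. General factors had 6 (5 to 6) higher, including MNAT1 (0.82 ± 0.09), which forms the TFIIH kinase with CCNH, and 3 (2) lower of 34. RNA polymerase subunits had 7 (4 to 5) higher and 4 (2 to 3) lower of 33. The polymerase I subunit POLR1G (1.26 ± 0.11) and the polymerase III subunit POLR3G (0.86 ± 0.08) rose, and the shared subunit POLR2E fell (-1.20 ± 0.09).

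Small nuclear RNAs and some other classes of small noncoding RNAs were called higher more often than named genes. Small nuclear RNAs form the core of the spliceosome, RPPH1 is the RNA of ribonuclease P, and RN7SK holds back the elongation factor P-TEFb. Of 19 such RNAs 12 (10 to 11) rose, and limma called 0 lower, also at an unadjusted p under 0.05 (median 0.77). RNU4-1, a U4 RNA, had 11.55 and 11.41 with miR-552-3p, against 8.43 and 8.06 with the control mimic (3.24 ± 0.16, adjusted p = 0.00454). RNU4-2 had 10.58 and 10.15 with miR-552-3p, against 7.92 and 7.35 with the control mimic (2.73 ± 0.26, adjusted p = 0.00695), but the U4 genes are nearly identical and their probes may read each other. RPPH1 had 9.70 and 9.24 with miR-552-3p, against 7.94 and 7.83 with the control mimic (1.58 ± 0.18, adjusted p = 0.00944). The groups did not overlap for any of the 3. RNU4ATAC, of the minor spliceosome, was at least 2.41-fold higher, RN7SK stood at 1.27, and the U1 probes RNU1-1 and RNU1-3, also near-copies, stood at 1.10 and 1.19. RN7SL1, the RNA of the signal recognition particle, was bright in both groups and at 0.01.

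Small nucleolar RNAs guide chemical marks onto ribosomal RNA, and Cajal body RNAs do the same for small nuclear RNAs. Of 102 measured 32 (21 to 27) rose and 4 (1 to 2) fell (median 0.40). The other 199 of 301 listed lay below the detection filter, and 9 of the 10 that were detected in 1 group only were called, so the count describes the RNAs that passed and not the class. By class, 21 of 42 box H/ACA RNAs were higher and 3 lower, 7 of 50 box C/D RNAs were higher and 1 lower, and 4 of 10 Cajal body RNAs were higher, and the difference between classes was not tested. Of these, 8 box H/ACA, 1 box C/D and 1 Cajal body RNA were detected in 1 group only. Box H/ACA RNAs were called higher more often than named genes (15.3%). Box C/D RNAs, the largest class, were called higher about as often as named genes and lower less often (19.5% of named genes). The median log2 change of box C/D RNAs was 0.32. SNORA28 had 8.85 and 8.11 with miR-552-3p, against 6.77 and 6.19 with the control mimic (1.999 ± 0.33, adjusted p = 0.0195), and the Cajal body RNA SCARNA13 had 9.21 and 9.21 with miR-552-3p, against 7.71 and 7.04 with the control mimic (1.84 ± 0.24, adjusted p = 0.0122). Both were higher on each miR-552-3p array. SNORA62 (1.74 ± 0.08) and SNORA7B (1.63 ± 0.09) also rose. Noncoding hosts from whose introns many of these RNAs are cut had 5 (2 to 4) of 17 lower, SNHG7 (-0.78 ± 0.08) among them, and 1 (1 to 2) higher, SNHG15 (0.88 ± 0.09).

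Probes of ribosomal RNA moved with these classes. All 3 rose, for 28S, RNA28SN5 (1.53 ± 0.12), 18S, RNA18SN5 (1.17 ± 0.15), and 5S, RNA5S9 (1.68 ± 0.10). Their median log2 level with the control mimic was 8.73, against 8.34 for 12 small nuclear RNAs and 9.655 for protein-coding genes. Whether probe signals follow the amounts of these ribosomal and small noncoding RNAs in the cell was not tested. The telomerase RNA TERC was at 0.68. Of 27 microRNA gene probes, which read the host or precursor and not the mature strand, 5 were higher, with MIR21 at 1.07. Of 195 long noncoding RNAs 38 were lower (19.5%) and 15 higher (7.69%). Among protein-coding genes 2166 of 10837 were lower (19.99%) and 1646 higher (15.2%). Protein partners of the small nuclear RNAs had few calls. Of 24 proteins of the U4/U6.U5 particle 2 (1 to 2) rose and 2 (2 to 3) fell, and of 35 U1, U2 and SR proteins 4 (1 to 4) rose and 5 (2 to 3) fell.

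**Figure D5:**
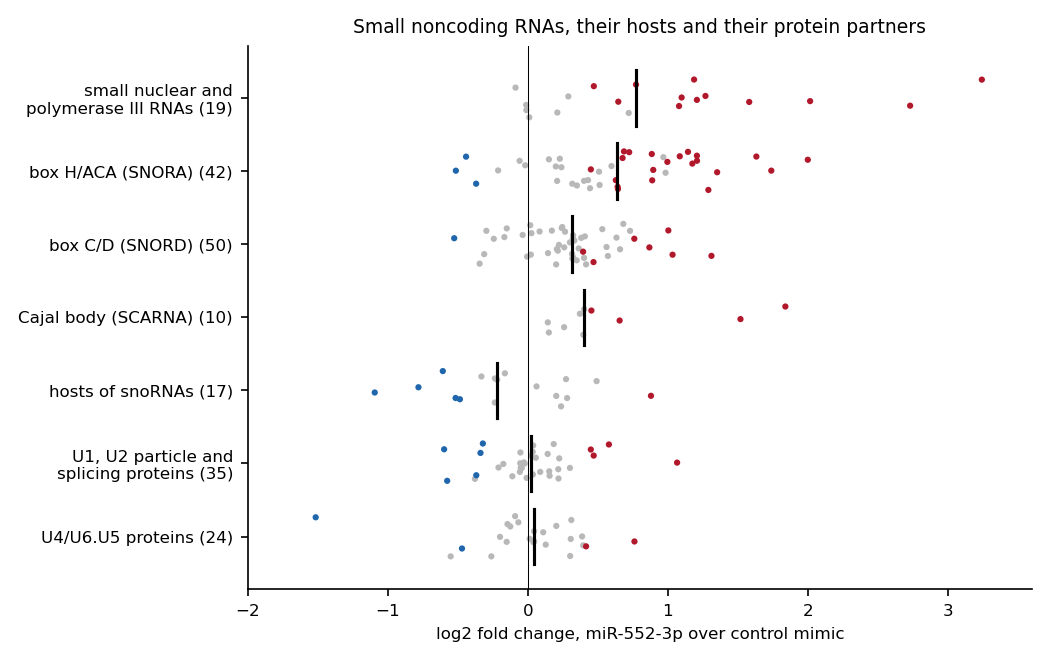
Each point is a measured small noncoding RNA, host or protein partner, placed by its log2 fold change, miR-552-3p over control mimic, with the number of genes in parentheses. Red points were called higher, blue points lower, grey points were not called, and black bars are medians. Medians of the small nuclear and box H/ACA RNAs lie furthest right of 0, and those of their protein partners near 0.

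Single genes of the machinery through which microRNAs act were called in both directions. Of 17 genes of microRNA processing and silencing 4 (2 to 3) rose and 4 (3 to 5) fell, or 23.5% each. Named genes had 15.3% higher and 19.5% lower, and deadenylation and decapping genes 13.3% and 6.67%. TNRC6A, the GW182 protein that links Argonaute to deadenylases, had 11.71 and 11.71 with miR-552-3p, against 10.38 and 10.36 with the control mimic (1.34 ± 0.07, adjusted p = 0.00454). The RNA-editing enzyme ADAR had 11.97 and 12.09 with miR-552-3p, against 13.15 and 13.12 with the control mimic (-1.11 ± 0.08, adjusted p = 0.00526). XPO5, the exporter of precursor microRNAs, fell (-0.65 ± 0.07) and the uridyltransferase TUT7 rose (0.97 ± 0.10). In deadenylation and decapping DCP2, the decapping enzyme, fell (-1.18 ± 0.08), and the recruiting factors TOB2 (1.04 ± 0.08) and BTG3 (0.77 ± 0.08) rose, with 4 (2 to 3) higher and 2 (1 to 2) lower of 30. CASC3, a part of the exon junction complex that nonsense-mediated decay reads, fell (-1.21 ± 0.07) among 27 genes with 3 (1 to 2) lower and 1 (0 to 1) higher. The splicing regulator PTBP2 rose (1.23 ± 0.11) and PRPF38A, a spliceosome activation factor, fell (-1.51 ± 0.11).

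The nuclear pore had 7 (3 to 4) higher and 5 (3 to 6) lower of 29, and within the central channel NUP58 rose (1.45 ± 0.17) while NUP54 fell (-1.01 ± 0.11). The ring protein POM121C, which has close copies, fell (-1.67 ± 0.09). Among 29 importins and exportins 4 (0 to 2) rose and 5 (3 to 4) fell, with KPNA6 at -1.45 ± 0.09.

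Ribosomal proteins changed little. Of 73 cytosolic ribosomal protein genes 6 (3 to 4) fell and 2 (0 to 1) rose, both below the background, with a median of 0.00. RPL13A had 13.27 and 13.23 with miR-552-3p, against 14.90 and 15.02 with the control mimic (-1.71 ± 0.08, adjusted p = 0.00454), RPL28 was at -1.07 ± 0.09 and RPL30 at -0.95 ± 0.09, and pseudogene copies of these genes may share their probes. Of 76 mitochondrial ribosomal proteins 8 (2 to 4) fell and 6 (3 to 6) rose (median -0.02), with MRPS11 (-0.89 ± 0.08) and MRPS10 (0.58 ± 0.07) at the ends.

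The factors that build ribosomes leaned upward. Of 55 biogenesis genes 16 (8 to 14) rose and 4 (2 to 3) fell (median 0.23). The helicase DDX10 had 13.20 and 13.27 with miR-552-3p, against 12.27 and 12.27 with the control mimic (0.97 ± 0.08, adjusted p = 0.00541), and NOLC1, a chaperone of small nucleolar particles, had 12.12 and 12.03 with miR-552-3p, against 11.12 and 11.31 with the control mimic (0.86 ± 0.10, adjusted p = 0.0102). NOP16 rose (0.84 ± 0.07) and NOC4L fell (-0.70 ± 0.09). Initiation factors were even, with 6 (1 to 3) higher and 6 (5 to 6) lower of 50. EIF2S2, the beta subunit of the factor that brings initiator tRNA, had 7.82 and 7.66 with miR-552-3p, against 9.15 and 9.08 with the control mimic (-1.38 ± 0.09, adjusted p = 0.00467), and EIF6, which keeps the large subunit from joining, fell (-0.76 ± 0.10). The tryptophan synthetase WARS1 fell (-1.31 ± 0.08) among 33 aminoacyl-tRNA synthetases with 3 (1 to 3) lower and 3 (0 to 1) higher.

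Protein turnover changed at single enzymes. Of 43 proteasome genes 5 (4 to 6) fell and 3 (1 to 2) rose, with a median of 0.00, and PSMD5, an assembly chaperone of the regulatory particle, fell (-1.27 ± 0.11). PSME3, an activator of nuclear proteasomes, also fell (-1.05 ± 0.07), and the core subunit PSMB3 was at -0.73. Of 70 genes of cullin-RING ubiquitin ligases 15 (7 to 12) fell and 10 (7 to 8) rose. The substrate receptor FBXO21 had 10.77 and 10.74 with miR-552-3p, against 12.90 and 12.88 with the control mimic (-2.13 ± 0.07, adjusted p = 0.00454), and FBXL18 (-1.32 ± 0.08) and FBXL20 (-1.29 ± 0.10) fell too. The conjugating enzyme UBE2R2, which serves such ligases, had 6.49 and 6.44 with miR-552-3p, against 8.11 and 8.53 with the control mimic (-1.85 ± 0.17, adjusted p = 0.00630). Both were lower on each miR-552-3p array. Deubiquitinases had 12 (7 to 8) higher and 8 (6 to 8) lower of 49, with YOD1 at 1.70 ± 0.09, OTUB2 at 1.16 ± 0.11 and USP47 at least 2.45-fold lower. Of 40 TRIM proteins 7 (2 to 5) fell, among them the corepressor TRIM28 (-0.49 ± 0.07), and 2 (0 to 2) rose.

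Folding in the endoplasmic reticulum divided within its list. The unfolded protein response adds chaperones and clears misfolded proteins. Of 30 genes 8 (8) fell and 7 (3 to 5) rose. EDEM1, which sends misfolded glycoproteins to degradation, had 7.93 and 8.28 with miR-552-3p, against 10.21 and 10.26 with the control mimic (-2.13 ± 0.14, adjusted p = 0.00475). CRELD2 (-1.20 ± 0.10), WFS1 (-1.17 ± 0.08) and SEL1L (-1.05 ± 0.16) fell, and so did the chaperone HSPA5 (BiP), at -0.83. In the ATF4 program, which answers amino acid shortage, 7 (5 to 7) of 28 fell and 3 (3) rose. Of the light chains that pair with SLC3A2, a pair moved apart, with the leucine carrier SLC7A5 at -1.24 ± 0.08 and the cystine carrier SLC7A11 at 1.26 ± 0.07, while TRIB3 fell (-0.94 ± 0.09) and PPP1R15A rose (1.10 ± 0.09). Among 41 cytosolic chaperonin and heat shock genes 8 (3 to 6) rose, including HSPA4L (0.92 ± 0.08) and HSPB8 (0.87 ± 0.12), and 5 (1 to 3) fell, including HSPA2 (-1.04 ± 0.09). DNAJ cochaperones had 4 (3 to 4) higher and 5 (3) lower of 36.

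Autophagy genes were called in both directions, and some of their falls were large. Autophagy wraps cell contents in a membrane on which LC3 proteins are fixed by the ATG5 to ATG12 conjugate. Of 46 genes 8 (7 to 8) fell and 9 (4 to 7) rose (median 0.06). These shares, 17.4% lower and 19.6% higher, stand against 19.5% and 15.3% of named genes. Called falls of at least 2-fold numbered 6 of the 46, against 4.84% of named genes. EI24, an endoplasmic reticulum protein needed for autophagy, had 7.92 and 8.07 with miR-552-3p, against 10.44 and 10.65 with the control mimic (-2.55 ± 0.12, adjusted p = 0.00454). MAP1LC3B, the gene of LC3B, had 8.65 and 9.0 with miR-552-3p, against 10.501 and 10.63 with the control mimic (-1.74 ± 0.15, adjusted p = 0.00598), and ATG5 had 7.22 and 6.75 with miR-552-3p, against 8.55 and 8.62 with the control mimic (-1.60 ± 0.18, adjusted p = 0.00918). No miR-552-3p array overlapped a control array for these 3. WIPI2, which marks the forming membrane, was at least 2.54-fold lower, below detection with miR-552-3p. Among those that rose ATG4D, an LC3 protease, had the largest change (1.13), and ATG12 was at 0.65. Lysosomal genes had 6 (5 to 7) lower, among them the proteases CTSB (-1.05 ± 0.07), CTSH (-1.09 ± 0.12) and CTSV (-1.05 ± 0.09) and the galactosidase GLB1 (-1.01 ± 0.08), and 6 (3 to 4) higher of 42.

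Genes of membrane traffic changed in both directions. Of 46 RAB proteins, which label organelles, 13 (8 to 11) fell and 4 (3 to 5) rose. RAB8B (-1.69 ± 0.07), RAB26 (-1.69 ± 0.12) and RAB4B (-1.55 ± 0.09) fell, and RAB3B rose (1.35 ± 0.16). ARF GTPases and regulators had 6 (2 to 5) higher and 7 (3 to 4) lower of 35, with ARL14 at least 3.30-fold higher against a control below detection and ASAP3 at -1.14 ± 0.16. The fusion proteins STX11 (1.52 ± 0.14) and STX1A (1.01 ± 0.08) rose within 73 SNAREs and tethers, of which 9 (6 to 7) rose and 11 (4 to 7) fell. Endocytosis genes had 10 (6 to 9) higher, led by CAV2 (1.13 ± 0.09) and FCHO2 (1.08 ± 0.14), and 6 (6) lower, led by EPS15 (-0.81 ± 0.12), of 44. Of 54 ESCRT, retromer and sorting nexin genes 8 (3 to 5) rose and 7 (6 to 7) fell, with SNX30 (-1.30 ± 0.08) and CHMP4B (-0.88 ± 0.09) lower by the most. Coat proteins of the COPI and COPII vesicles had 2 (2) higher and 3 (2 to 3) lower of 29, and the vacuolar ATPase 2 (1) and 1 (0 to 1) of 17.

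Focal adhesion genes leaned higher. Focal adhesions join integrins to actin fibres under tension. Of 31 measured genes 14 (9 to 10) rose and 2 (1 to 3) fell (median 0.25). PDLIM7, a LIM protein of actin fibres, had 11.45 and 11.48 with miR-552-3p, against 9.42 and 9.52 with the control mimic (1.99 ± 0.08, adjusted p = 0.00454), and the zyxin partner TES had 9.58 and 9.73 with miR-552-3p, against 8.11 and 8.47 with the control mimic (1.36 ± 0.15, adjusted p = 0.00923). Both miR-552-3p arrays were above both control arrays. TGFB1I1, the gene of HIC-5 (1.28 ± 0.09), and the talin-related TLNRD1 (1.29 ± 0.08) rose as well. Integrins themselves had 3 (2 to 3) higher, ITGA3 (0.71 ± 0.08), ITGAV (0.503 ± 0.07) and ITGA6 (0.49), and 1 (1) lower, ITGB5 (-1.01 ± 0.08), of 17.

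Actin and myosin genes had 8 (5 to 6) higher and 6 (1 to 4) lower of 39 and 7 (5 to 7) higher and 4 (4 to 5) lower of 32. TAGLN, a smooth muscle actin-binding protein that serum response factor drives, rose (1.07 ± 0.09), as did MYO5A (0.96 ± 0.08), while MYO1D (-1.15 ± 0.09) and MYO10 (-1.01 ± 0.07) fell. Tubulin genes had 5 (3 to 4) of 28 lower and 3 (1 to 3) higher (median -0.18), TUBB4A (-1.12 ± 0.11) and TUBB3 (-0.71 ± 0.08) among the falls and TUBB6 (0.504 ± 0.09) among the rises. Kinesins and dynein had 6 (1 to 3) higher and 8 (4 to 5) lower of 45.

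At cell junctions the claudin CLDN1 rose (1.10 ± 0.07), the connexin GJB2 fell (-1.35 ± 0.10) and EPCAM, an epithelial adhesion protein, was at -0.65 ± 0.08, with 8 (6 to 7) higher and 9 (5 to 7) lower of 43. Of 8 keratins 3 (2) rose, KRT80 (0.94 ± 0.07), KRT15 (0.80 ± 0.07) and KRT19 (0.46), and limma called 0 lower, also at an unadjusted p under 0.05. Matrix genes had 13 (9 to 10) higher and 7 (5 to 7) lower of 49. The laminin chain LAMB3 had 11.45 and 11.34 with miR-552-3p, against 9.93 and 9.91 with the control mimic (1.48 ± 0.08, adjusted p = 0.00454), thrombospondin THBS1 rose (1.23 ± 0.10), and fibrillin FBN2 had 9.46 and 9.62 with miR-552-3p, against 11.55 and 11.43 with the control mimic (-1.95 ± 0.10, adjusted p = 0.00454). Of 37 genes of matrix turnover 12 (7 to 9) rose and 7 (6 to 9) fell, with the hyaluronan synthase HAS3 (1.27 ± 0.08) higher and its relative HAS2 (-1.19 ± 0.08), the hyaluronan-degrading CEMIP (-2.32 ± 0.10) and the inhibitor TIMP2 (-1.13 ± 0.10) lower.

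Hypoxia-response genes were higher. HIF factors drive this program when oxygen is low, and EGLN enzymes mark HIF for destruction through VHL. Of 24 genes 13 (11 to 13) rose and 3 (2 to 3) fell (median 0.40). The 3 that fell were the HIF subunit EPAS1 (-0.998 ± 0.09), EGLN2 (-1.06 ± 0.07) and VHL (-0.49). VEGFA had log2 levels of 8.57 and 8.60 with miR-552-3p, against 7.85 and 7.48 with the control mimic (adjusted p = 0.0178), and both miR-552-3p arrays were higher. Among the other rises were the mitophagy receptor BNIP3 (0.69), the glucose transporter SLC2A1 (0.63) and ANKRD37 (0.79). Glycolysis as a whole was even, with 6 (6) higher and 6 (4 to 5) lower of 27. Hexokinase HK2 rose (1.17 ± 0.20), while the pyruvate dehydrogenase kinases PDK4 (-2.04 ± 0.08) and PDK3 (-1.72 ± 0.09), which inhibit pyruvate dehydrogenase, and the pyruvate kinase PKM (-1.16 ± 0.08) fell.

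Mitochondrial machines had few calls. Of 40 complex I genes 4 (1 to 2) rose and 2 (1 to 2) fell, and of 40 genes of complexes II to IV 4 (1) rose and 4 (2 to 4) fell, with COX4I1 at -0.85 ± 0.08. ATP synthase had 1 (1 to 2) higher, ATP5MK (0.73 ± 0.08), and 1 (0 to 1) lower, the assembly factor ATPAF2 (-0.44), of 22. Citrate synthase, CS, the entry of the tricarboxylic acid cycle, fell (-1.03 ± 0.08), and in that cycle and its neighbours 5 (4 to 5) of 34 fell and 3 (0 to 2) rose. Import and dynamics genes had 9 (4 to 7) higher and 4 (1 to 2) lower of 53, with the import motor cofactor GRPEL1 at 0.82 ± 0.08 and the receptor TOMM22 at -0.76 ± 0.08.

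In lipid metabolism HMGCS1, the enzyme before the rate-limiting step of cholesterol synthesis, had 12.99 and 12.79 with miR-552-3p, against 11.46 and 11.55 with the control mimic (1.38 ± 0.10, adjusted p = 0.00526). Of 23 cholesterol genes 8 (6 to 8) rose and 4 (4) fell, including DHCR7 (-0.89 ± 0.08), the final enzyme of a branch, and the regulator SREBF1 (-0.62). Of 43 fatty acid genes 7 (5 to 7) fell, led by the peroxisomal EHHADH (-1.69 ± 0.10) and the acetyl-CoA carboxylase ACACB (-1.28 ± 0.15), and 4 (3 to 4) rose. The acetyl-CoA synthetases moved apart, with the mitochondrial ACSS1 at 1.19 ± 0.10 and the cytosolic ACSS2 at -1.06 ± 0.08. One-carbon and polyamine genes had 5 (2 to 3) higher and 5 (3 to 5) lower of 28, with SHMT1 at -0.999 ± 0.08 and spermine synthase, SMS, at 0.67 ± 0.08.

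Some lists of detoxifying enzymes leaned lower. The median of NRF2 targets and glutathione genes did not (-0.00497). Of that list 21.6% fell and 8.11% rose, against 19.5% and 15.3% of named genes. A549 cells carry high levels of detoxifying enzymes, many of them driven by NRF2. Of 34 aldo-keto reductases, aldehyde and alcohol dehydrogenases 13 (6 to 11) fell and 3 (2) rose (median -0.24). ALDH4A1, the proline pathway enzyme, had 6.61 and 6.49 with miR-552-3p, against 8.78 and 8.82 with the control mimic (-2.25 ± 0.08, adjusted p = 0.00454), ALDH5A1 fell (-1.69 ± 0.11), and ALDH1A3, which makes retinoic acid, had 11.02 and 11.09 with miR-552-3p, against 9.74 and 9.75 with the control mimic (1.31 ± 0.08, adjusted p = 0.00454). Of 32 cytochromes P450, epoxide hydrolases and conjugating enzymes 12 (8 to 10) fell and 2 (2 to 3) rose (median -0.16), with CYP1B1 (-1.41 ± 0.09) and the hydrolase EPHX2 (-1.08 ± 0.08) lower. The 2 that rose were CYP51A1 (0.80), of cholesterol synthesis, and CYP4V2 (0.56). NRF2 targets and glutathione genes had 8 (5) lower and 3 (3) higher of 37, with GSTM1 (-1.16 ± 0.08) and GSTO2 (-1.60 ± 0.08) lower and the pump ABCC2 (0.81 ± 0.08) higher.

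Transporters and zinc fingers, the largest families measured, had calls in both directions. ZNF genes were called less often than named genes, with 17.4% lower and 9.37% higher against 19.5% and 15.3%. Solute carriers had 25.6% lower and 19.4% higher. Of 211 solute carriers 54 (36 to 39) fell and 41 (25 to 31) rose, with the zinc carrier SLC30A3 (-2.02 ± 0.09) and the iron exporter SLC40A1 (-1.90 ± 0.08) at one end and SLC35F3 (1.84 ± 0.25) and the amino acid carrier SLC6A15 (1.69 ± 0.10) at the other. Of 23 ABC transporters 6 (4 to 5) rose and 4 (3 to 4) fell, and ABCG2, a drug exporter, was at -1.43 ± 0.08. Of 299 ZNF genes 52 (32 to 42) fell, ZNF467 (-2.07 ± 0.09) and ZNF792 (-1.86 ± 0.14) by the most, and 28 (16 to 22) rose. Among 20 MHC class I genes 3 (2) rose and 2 (2 to 3) fell. The stress ligands of the NKG2D receptor on natural killer cells moved apart, with MICA at least 3.42-fold higher against a control below detection and ULBP1 at -1.24 ± 0.11.

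Of 11 genes that other studies have named as miR-552 targets 9 had a probe. The detection filter removed 5 of them and left 4 measured. Of these 3 fell, RUNX3, with 9.41 and 9.65 with miR-552-3p, against 10.91 and 11.21 with the control mimic (-1.53 ± 0.15, adjusted p = 0.00747), FOXO1 (-0.88 ± 0.07, adjusted p = 0.00591) and SMAD2 (-0.56), and limma called 0 higher, also at an unadjusted p under 0.05. This is 3 of 4 against 19.5% of named genes called lower, and 4 genes are too few to read a share from.

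Probes of one gene were compared where several passed the detection filter. Of 1071 called genes with another such probe 619 had one called in the same direction and 27 (2.52%) had one called in the opposite direction. Unnamed probes were higher more often than lower, with 568 higher and 394 lower of 4503 and a median of 0.07, and they were not assigned to genes.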

How the data were processed

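RNA from 4 samples was measured on Illumina bead arrays. The authors deposited intensity values per probe that were not normalized, each with a detection p-value, exported with GenomeStudio 2011.1 per the submitters' processing notes. A deposited table of log2 values was set against the intensities: they matched quantile-normalized log2 intensities to within 0.00579 over 17751 probes. Here the intensities were background-corrected, quantile-normalized and log2-transformed with limma's neqc (offset 16) on the 4 arrays. Probes detected (p below 0.05) by 2 or more arrays entered, the brightest one for each gene. Groups were compared in limma 3.58.1 (R 4.3.3) with lmFit and eBayes, the p-values were adjusted by Benjamini-Hochberg across the 15885 rows, and calls made at an adjusted p under 0.05. SE is limma's moderated standard error. The procedure was tested on simulated data. GEO's platform annotation gave gene names: 30112 probes had 1 symbol, 8 several and 17199 none.

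Genes named were, per list, up to 4 members called in the comparison and in each fit without 1 array, by size of change, then called members by p, and over all genes the 15 largest rises and falls. For this rule the fits without 1 array were those that kept the miR-608 arrays, since the fits on 3 arrays without a control array made 0 calls. Genes outside the rule were named where a count was spelled out or for their textbook role, after their values were seen. The comparison, lists and markers were chosen with earlier results of these data known. The labels do not tell whether same-numbered arrays are paired. Their deviations hardly correlated (0.0298), which with so few arrays per group cannot exclude pairing. Alternatives were other background corrections and normalizations, other filters, another probe rule, a trended prior, a replicate block and fits without 1 array. Some items are not reported here.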

Additional observations from a re-analysis of the deposited data

How the results depend on the processing

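The count of 4926 called rows stayed within 1.5 times under most settings, between 4007 with the replicate number as a block and 6574 with a trended prior. It was 2235 with no detection filter, where 37253 rows were tested, and 0 to 1900 in the fits on 3 arrays without miR-552-3p replicate 1 or 2 or control replicate 1 or 2. The count of 1000 rows called at least 2-fold was 1003 with the replicate block and 0 to 998 in those fits. It was 411 with no background correction, 502 with normexp and 400 with the authors' values. The cause of these changes was not tested. The fits that kept the miR-608 arrays were added after seeing the data, take the lone array of a group to vary like the others, and gave 3413 to 3571 called rows and 953 to 1049 of at least 2-fold. With the mean of a gene's probes in place of the brightest, 3 named genes with disagreeing probes turned, GRB2 to -0.371, MCL1 to 0.201 and PDS5B to -0.042. A gene detected in 1 group only has a bound in place of a fold, and 2 arrays per group limit every value.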
